A study of Mus musculus with 20 samples.

Results

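Peripheral nerve runs through skeletal muscle, and a piece of quadriceps therefore carries Schwann cell RNA among a large excess of myofibre RNA. The genes described are 8 Schwann cell and myelin genes, Mbp, Pmp22, Prx, Mag, Sox10, Ncmap, S100b and Cnp, chosen by name and found in the count table through their Ensembl identifiers among 55416 listed genes. Quadriceps came from male wild-type C57BL/6J mice aged 26 to 28 months, and each muscle was that of 1 mouse. All mice had been fasted for 4 h and received a single intramuscular injection of 50 µL, which was saline (0.9%) in the 10 controls and a secretome product of pluripotent stem cells in the other 10. The injected muscle was collected 3 h later for RNA sequencing. The comparison addresses the acute response of old muscle to the product, and the muscle holds the injection site, nerve, vessels, fat and connective tissue together. The RNA protocol in the labels speaks of myotubes, whereas the labelled tissue is quadriceps, and all 5 myofibre markers, led by the fast myosin gene Myh4, were abundant.

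Myelinating Schwann cells wrap a single axon segment in a spiral of membrane that is compacted into myelin. In the compacted part the membranes are held together by proteins that include myelin basic protein (Mbp) and peripheral myelin protein 22 (Pmp22). At its edges lie uncompacted channels and the innermost membrane, where Mag and Cnp are found, and the outer surface is tied to dystroglycan and the basal lamina by periaxin (Prx) and Drp2. Sox10 is the transcription factor that Schwann cells need throughout their life, and with Egr2 it drives the myelin genes. In muscle the same lineage also covers the motor endings as terminal Schwann cells and wraps small axons without myelin.

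Prx and Ncmap were the pair that moved together most closely across muscles, and the 250 bases before their starts are shown for that reason. Mag and Cnp are shown because a window of each held ACAAAG, a core of the sites bound by SOX factors. Capitals mark it on either strand (CTTTGT is the same match on the other strand). Of the other Mag windows, chr7:30914923-30915172 overlaps the one shown and held the same site, whereas chr7:30914322-30914571 held none. Sequences and coordinates are those of RefSeq on GRCm38.p6, which is not the build of the counts. Prx lies at chr7:27499074-27499323 on the plus strand, the Ncmap starts at chr4:135398228-135398477 and chr4:135385673-135385922 on the minus strand, Mag at chr7:30914864-30915113 on the minus strand and Cnp at chr11:100574689-100574938 on the plus strand.
Prx: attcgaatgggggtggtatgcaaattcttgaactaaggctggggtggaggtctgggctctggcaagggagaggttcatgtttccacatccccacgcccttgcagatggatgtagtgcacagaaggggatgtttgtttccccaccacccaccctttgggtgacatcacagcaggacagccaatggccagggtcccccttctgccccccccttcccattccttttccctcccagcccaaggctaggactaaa
Ncmap, upstream start: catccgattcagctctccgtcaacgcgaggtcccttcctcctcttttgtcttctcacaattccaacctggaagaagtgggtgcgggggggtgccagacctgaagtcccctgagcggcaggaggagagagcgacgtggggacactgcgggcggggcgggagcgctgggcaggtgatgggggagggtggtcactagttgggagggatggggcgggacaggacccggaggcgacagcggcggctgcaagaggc
Ncmap, downstream start: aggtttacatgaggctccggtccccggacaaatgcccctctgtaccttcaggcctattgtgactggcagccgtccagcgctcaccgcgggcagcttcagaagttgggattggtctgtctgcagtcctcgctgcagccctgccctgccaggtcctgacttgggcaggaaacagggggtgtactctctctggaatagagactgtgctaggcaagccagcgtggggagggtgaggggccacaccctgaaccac
Mag: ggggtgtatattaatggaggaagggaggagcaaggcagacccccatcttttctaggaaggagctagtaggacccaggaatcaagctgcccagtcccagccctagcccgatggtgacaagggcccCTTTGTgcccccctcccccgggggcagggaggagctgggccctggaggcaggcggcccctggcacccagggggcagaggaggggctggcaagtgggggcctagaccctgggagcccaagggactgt
Cnp: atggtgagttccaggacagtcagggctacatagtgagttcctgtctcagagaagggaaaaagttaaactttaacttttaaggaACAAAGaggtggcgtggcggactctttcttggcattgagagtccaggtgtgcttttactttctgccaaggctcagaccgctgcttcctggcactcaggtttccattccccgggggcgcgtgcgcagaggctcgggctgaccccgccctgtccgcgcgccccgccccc

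Windows from the RefSeq promoter table were read for 6 of the 8 genes, and Mbp and Sox10 were left out. ACAAAG was found on either strand in 16.5% of 32851 windows of this length, GTGGGCG, a core of EGR sites, in 7.02%, and TATAAA in 12.4%. Neither window of Ncmap nor that of Prx held any of these 3 motifs, and those of Pmp22 and S100b held none either. The 3 motifs share no overlapping match in the windows shown.

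Between 13286983 and 22987237 reads were counted on genes per library. Titin (Ttn) took 7.02% to 11.03% of the counts in libraries 1 to 5 (controls only), 16.4% to 21.1% in libraries 6 to 15 (5 controls and 5 treated) and 14.2% to 14.7% in libraries 16 to 20 (treated only). The labels name no batch, and outside libraries 6 to 15 the treatment and the library range cannot be told apart. Fold changes within libraries 6 to 15 are therefore given beside those of all 20 muscles. Levels are given in CPM, counts scaled to the normalized size of each library. In whole muscle, fewer Schwann cells and less RNA per Schwann cell cannot be told apart.

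Per kilobase of exon, Pmp22 was the most abundant of the 8 genes, with a mean level of 5.17 ± 1.25 CPM per kilobase (SD, n = 20). It was followed by Cnp at 1.71 ± 0.319, Mbp at 1.23 ± 0.255 and Prx at 0.633 ± 0.246 CPM per kilobase. Sox10 lay at 0.216 ± 0.116, S100b at 0.207 ± 0.124, Ncmap at 0.124 ± 0.105 and Mag at 0.0504 ± 0.0384 CPM per kilobase. The level of Pmp22 did not overlap with that of Cnp in any muscle. Cnp lay above Mbp in 18 of 20 muscles, and Mbp above Prx and Prx above Sox10 in 20 of 20. The next neighbours were not apart beyond their spread: Sox10 lay above S100b in 11 of 20 muscles, S100b above Ncmap in 14 and Ncmap above Mag in 15. Lengths were summed over the exons of all transcripts of a gene, so a gene with many long isoforms such as Mbp is set low on this scale.

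**Figure D1:**
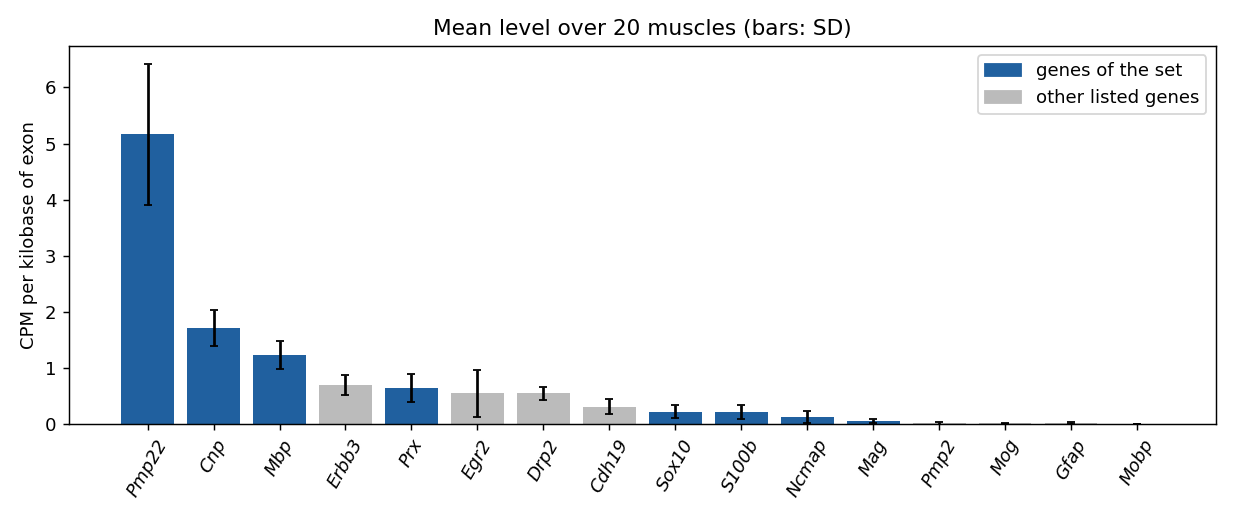
Mean level per gene over 20 muscles in CPM per kilobase of exon, with bars for the SD between muscles. Blue columns are the 8 genes described and grey columns are other listed genes. Pmp22 (5.17) stands highest, followed by Cnp (1.71), and the oligodendrocyte genes Mog and Mobp lie at or near 0.

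Other genes of the lineage were also present. The neuregulin receptor gene Erbb3 reached 0.687 ± 0.182 CPM per kilobase, and Cdh19, a cadherin gene of Schwann cells, 0.306 ± 0.129. The markers that would point to central myelin were at the floor of detection, as Mobp and Olig2 had 0 counts in all libraries and Mog and Opalin had at most 1 count in a library. Of the myelin genes listed beside the set, Pmp2 had at most 2 counts and Gjb1, the gap junction protein of uncompacted myelin, at most 3 counts in a library.

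Depth differed widely between the 8 genes and sets how far each can be read. Over all 20 libraries, 4414 reads were counted on Pmp22, 3785 on Mbp, 2259 on Cnp, 1279 on Prx and 241 on Sox10. Mag had 75 reads in all, Ncmap 100 and S100b 112. These 3 genes fell below the filter on low counts, so 5 of the 8 were tested in the main comparison.

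The spread between muscles was wider for Prx and Sox10 than for Mbp, Pmp22 and Cnp. Mbp ranged 2.25-fold from the lowest to the highest of the 20 muscles and Cnp 1.94-fold, with coefficients of variation of 20.7% and 18.6%. Pmp22 ranged 2.34-fold with 24.3%. Prx ranged 4.29-fold, with a coefficient of variation of 38.8% where counting error alone gives 12.5%. The variation left after counting error and treatment, edgeR's biological coefficient of variation, was 36.1% for Prx and 45.2% for Sox10. Those values stood at percentile 82.0 and 91.7 of all tested genes. That of Cnp (17.9%) stood at 28.4, that of Mbp (20.2%) at 39.8 and that of Pmp22 (22.04%) at 47.2. These percentiles do not allow for abundance. At the abundance of each gene, edgeR's trend gave 32.8% for Prx and 40.6% for Sox10. It gave 28.2% for Cnp, 25.0% for Mbp and 24.3% for Pmp22. For the scarce genes counting error was large. It alone gives a coefficient of variation of 51.6% for Mag, where 76.2% was seen. For Ncmap it gives 44.7%, where 84.3% was seen, and for S100b 42.3%, where 59.6% was seen.

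In no member did the treatments separate. Myelin basic protein, the cytoplasmic glue of compact myelin, was read from the gene Mbp (ENSMUSG00000041607). It ranged from 7.14 CPM in control 5 to 15.03 in control 10 with a median of 11.2, and in secretome-treated muscle from 6.68 in muscle 10 to 11.6 in muscle 2 with a median of 9.66. The groups overlapped over most of their range, though 3 controls, all in libraries 6 to 15, stood with control 1 above every treated muscle. The log2 fold change of treated over control muscle was -0.21 ± 0.13 (SE), with an adjusted p of 0.425. Within libraries 6 to 15 it was -0.24, with an adjusted p of 0.633. Mbp also gives shorter golli transcripts in cells outside the nerve, and gene counts do not tell the forms apart.

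Pmp22 (ENSMUSG00000018217) encodes a tetraspan protein of compact myelin whose duplication causes a Charcot-Marie-Tooth neuropathy. Fibroblasts also express it. Control muscle ran from 8.10 CPM in control 9 to 18.9 in control 5 with a median of 11.98, and treated muscle from 9.05 in muscle 1 to 15.8 in muscle 8 with a median of 11.01. The 5 controls of libraries 1 to 5 held 11.8 to 18.9 CPM, and 3 of them stood above every treated muscle. The log2 fold change was -0.22 ± 0.14 with an adjusted p of 0.444, and it was -0.04 within libraries 6 to 15 (adjusted p = 0.937).

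Cnp (ENSMUSG00000006782) encodes the cyclic nucleotide phosphodiesterase of uncompacted myelin, an enzyme that other cells hold at lower levels. Controls ran from 5.78 CPM in muscle 4 to 8.51 in muscle 2 with a median of 6.62, and treated muscle from 4.38 in muscle 5 to 8.38 in muscle 10 with a median of 5.23. Of the treated muscles, 8 of 10 lay below the control median, among them all 5 of libraries 6 to 15, but the highest treated muscle was near the top of the controls. The log2 fold change was -0.26 ± 0.12 with an unadjusted p of 0.0397 and an adjusted p of 0.294. It was -0.36 within libraries 6 to 15 (unadjusted p = 0.0299, adjusted p = 0.472). It was the 1 member of 5 at an unadjusted p under 0.05, and 9.21% of all 14471 tested genes were lower at that level, or 4.92% within libraries 6 to 15.

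Prx (ENSMUSG00000053198) encodes periaxin, which links the outer Schwann cell membrane through Drp2 to the basal lamina. Controls ran from 2.22 CPM in muscle 4 to 6.03 in muscle 2 with a median of 3.97, and treated muscle from 1.41 in muscle 10 to 5.56 in muscle 3 with a median of 3.04. Both groups held muscles near the bottom and the top of the range, and treated muscles 3 and 9 stood apart above the other treated muscles. The log2 fold change was -0.28 ± 0.24 with an adjusted p of 0.580, and -0.25 within libraries 6 to 15 (adjusted p = 0.708).

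Sox10 (ENSMUSG00000033006), the lineage's transcription factor, lay between 0.350 CPM in control 4 and 1.33 in control 9 with a control median of 0.697. In treated muscle it lay between 0 counts in muscle 4, which allows up to 0.187 CPM, and 1.65 CPM in muscle 3, with a median of 0.572. The treated group thus held both the lowest and the highest muscle. The log2 fold change was -0.26 ± 0.36 with an adjusted p of 0.753, and its 95% interval ran from -1.03 to 0.51. Within libraries 6 to 15 it was also -0.26 (adjusted p = 0.889).

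The 3 scarce genes were read from their counts, and from the fit without a filter on low counts. Mag (ENSMUSG00000036634), the adhesion protein that faces the axon, had 2 to 10 counts in controls and 0 to 10 in treated muscle, with median levels of 0.213 and 0.131 CPM. Ncmap (ENSMUSG00000043924), a small membrane protein of non-compact myelin, had 2 to 16 counts in controls and 0 to 10 in treated muscle, with medians of 0.307 and 0.126 CPM. S100b (ENSMUSG00000033208), a calcium-binding protein used to stain Schwann cells and also made by adipocytes, had 1 to 10 and 2 to 14 counts, with medians of 0.266 and 0.272 CPM. The groups overlapped for each gene, and a count of 0, seen in 2 treated muscles for Mag and for Ncmap, allows up to 3 counts. The log2 fold changes of that fit were -0.80 ± 0.53 for Mag, -0.78 ± 0.52 for Ncmap and 0.07 ± 0.42 for S100b, with adjusted p-values of 0.513, 0.514 and 0.965. Without the filter, 0.00308% of 32456 genes passed the 5% false discovery rate. A difference in these 3 genes of the size seen for Mbp or Cnp was not detectable at this depth.

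**Figure D2:**
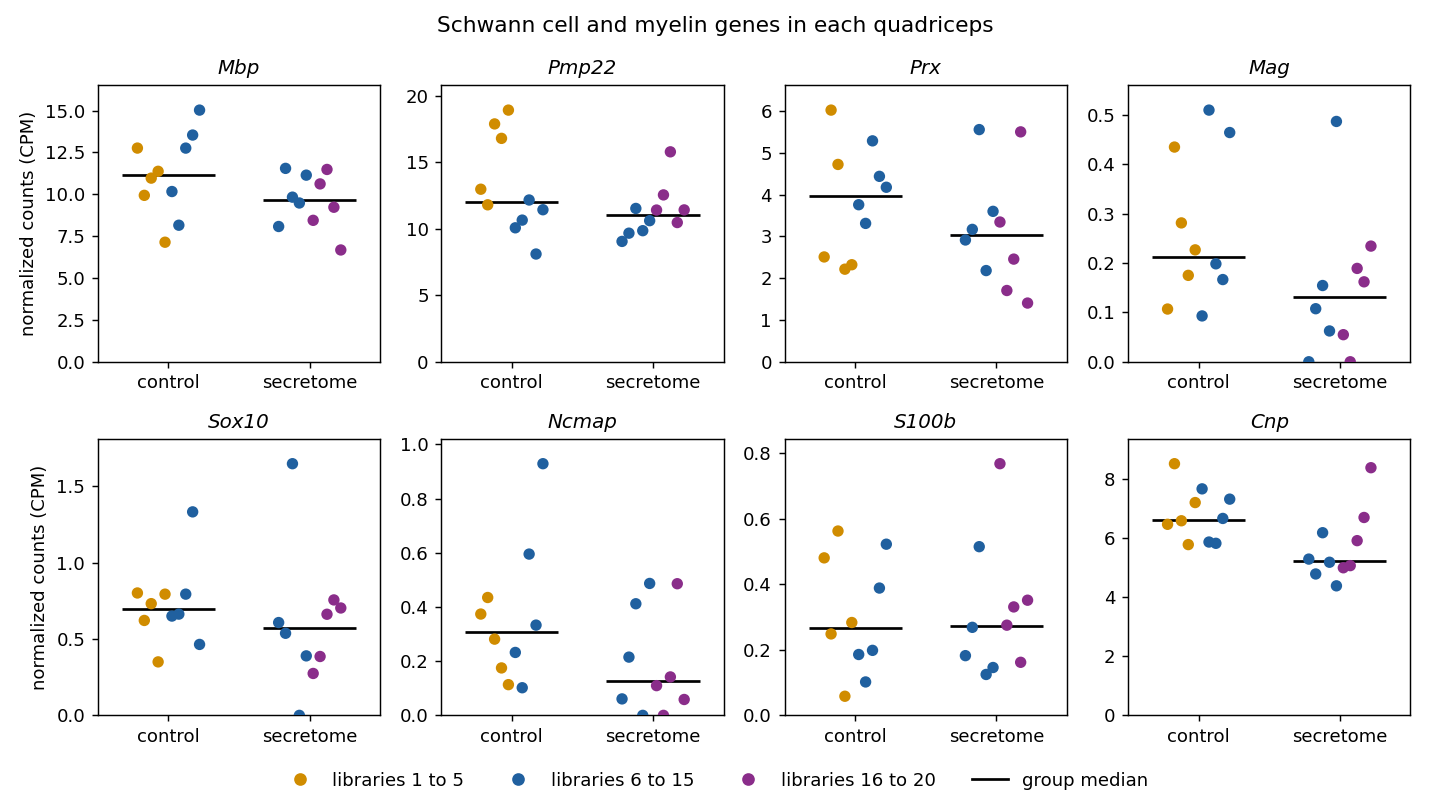
Normalized level (CPM) of each gene in each muscle, with 1 point per muscle, a line at the group median and colours for the 3 ranges of library numbers. The groups overlap in all 8 panels, and for Pmp22 the 5 controls of libraries 1 to 5 (11.8 to 18.9 CPM) lie high.

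Across all 14471 tested genes, 1 gene or 0.00691% passed a 5% false discovery rate in edgeR's quasi-likelihood test, and 0 of the 5 tested members did, with Cnp alone at an unadjusted p under 0.05. DESeq2 called 190 genes (1.31%) and 0 members. The gene past the threshold in edgeR was Plxnb2, a plexin receptor for semaphorins, at 19.2 CPM in control and 13.3 in treated muscle, with a log2 fold change of -0.53 ± 0.08 and an adjusted p of 0.0228. The log2 fold changes of the 5 tested members lay from -0.28 to -0.21, all below 0, as were those of 55.9% of the tested genes, whose median was -0.03. Of the treated muscles, 7 or 8 of 10 lay below the control median for 7 of the 8 genes, and 4 of 10 for S100b. At least 7 of 10 did so in 32.9% of tested genes. The CPM values of the treatments did not overlap in 0.0484% of tested genes, and overlapped in all 8 members.

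The treatment effect within libraries 6 to 15 was set against that in the outer libraries by an interaction term. It passed the 5% false discovery rate in 8 genes (0.0553%) and in 0 of the 5 tested members. The difference was widest for Pmp22, at 0.30 ± 0.21 on the log2 scale with an adjusted p of 0.631, and lay within 0.22 of 0 for the other 4 members. At an unadjusted p under 0.05 it was seen in 11.1% of tested genes and in 0 of the 5 members.

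Whether the treatment changed the spread between muscles was tested on the distance of each muscle from its group median. The mean distance for Sox10 on the log2 scale was 0.30 in control and 0.67 in treated muscle, that of Prx 0.40 and 0.48, that of Cnp 0.14 and 0.19, that of Mbp 0.25 and 0.19 and that of Pmp22 0.29 and 0.16. None of these 5 differences passed the 5% false discovery rate in limma (adjusted p of at least 0.641), and of all tested genes 0.00691% did. At an unadjusted p under 0.05 there were 0 of the 5 members, where all tested genes gave 8.29%. The distance was smaller in treated muscle for 75.8% of tested genes, and for 2 of the 5 members. In simulated data this test found 5 of 200 genes given a 4-fold SD in treated muscle, and 22 of 200 given a 16-fold SD. It thus misses most changes of spread, and a p that misses the threshold here does not show an equal spread.

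**Figure D3:**
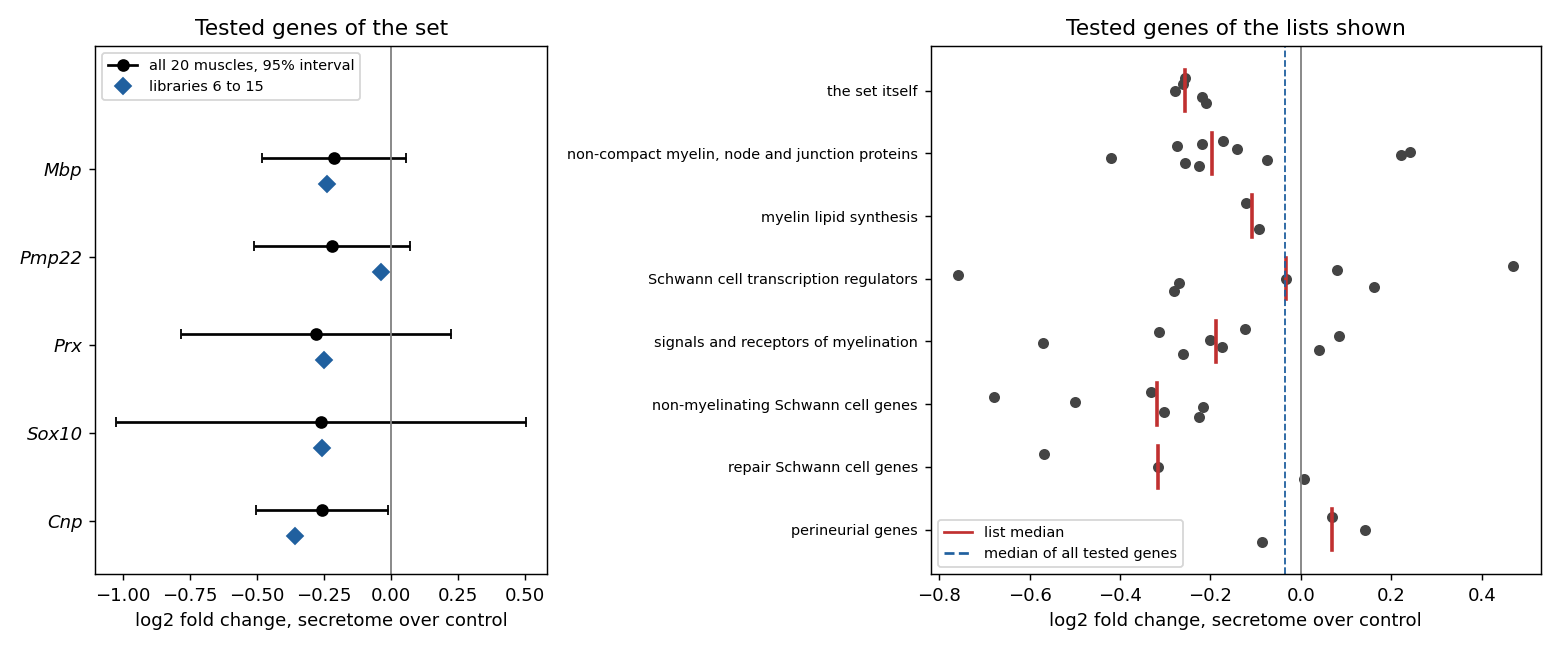
Left, log2 fold change of treated over control muscle for the 5 tested genes with 95% intervals (black, 20 muscles) and the values within libraries 6 to 15 (blue diamonds). Right, the log2 fold change of each tested gene of the Schwann cell lists shown, with the median of each list in red and that of all tested genes (-0.03) as a dashed line. The 5 members lie between -0.28 and -0.21, and Pmp22 lies at -0.04 within libraries 6 to 15.

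Other genes of the lineage were taken from 8 lists of 60 genes, of which 41 were tested. Of the 41, 0 passed the 5% false discovery rate in edgeR and 1, Tead1, did in DESeq2. At an unadjusted p under 0.05, 3 were higher and 2 lower, where all tested genes gave 6.52% and 9.21%. A total of 31 (75.6%) had a log2 fold change below 0, where all tested genes gave 55.9%. Within libraries 6 to 15, 25 of 42 (59.5%) lay below 0, where all tested genes gave 52.1%. Of 10 tested genes of uncompacted myelin, nodes and junctions, 8 lay below 0, as did 8 of 11 within libraries 6 to 15. The 2 above it were the scaffold genes Mpp6 (0.22 ± 0.10, adjusted p = 0.270) and Dlg1 (0.24 ± 0.11, adjusted p = 0.272), at 70.4 and 80.2 CPM in control muscle and expressed in many cell types. They stood at 0.15 and 0.20 within libraries 6 to 15.

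The tested lipid genes, Cers2 for the very long chain ceramides of myelin and Aspa for the release of acetate, had log2 fold changes of -0.12 ± 0.10 and -0.09 ± 0.17, and of -0.12 and 0.07 within libraries 6 to 15. Of the 7 tested transcription regulators, 4 lay below 0, and 3 within libraries 6 to 15. Tead1, an effector of the Hippo pathway in Schwann cells and in muscle, was at 309 CPM in control and 427 in treated muscle, above the control median in 10 of 10 treated muscles, with a log2 fold change of 0.47 ± 0.11 and an adjusted p of 0.109 in edgeR and 0.00928 in DESeq2. It was 0.38 within libraries 6 to 15. Nfatc4, a partner of Sox10 in neuregulin signalling, was at 4.90 and 2.89 CPM, a log2 fold change of -0.76 ± 0.22 (adjusted p = 0.153), but -0.20 within libraries 6 to 15. Zeb2, which represses inhibitors of Schwann cell differentiation, was at -0.03 ± 0.12, and at 0.20 within libraries 6 to 15.

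Of the 8 tested signals and receptors, 6 lay below 0, and 4 within libraries 6 to 15. Lgi4, a ligand secreted by Schwann cells and bound by Adam22 on neurons, stood at -0.57 ± 0.23 (adjusted p = 0.253) and at -0.05 within libraries 6 to 15. Erbb2, the co-receptor of neuregulin, stood at -0.26 ± 0.14 (adjusted p = 0.359) and at -0.28 in that range. The abundant matrix and adhesion genes stood nearer to 0, with Lama2 at -0.12 ± 0.11 and Itga6 at 0.09 ± 0.13, and at 0.01 and 0.03 in that range.

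All 6 tested genes of non-myelinating Schwann cells lay below 0, with a median of -0.32. Within libraries 6 to 15, 4 of 6 did, also with a median of -0.32. Of all tested genes, 55.9% lay below 0, and 52.1% within libraries 6 to 15. Ngfr, the low-affinity neurotrophin receptor, was at 1.18 CPM in control and 0.733 in treated muscle (log2 fold change -0.68 ± 0.35, adjusted p = 0.343). Cdh19 was at 1.54 and 1.08 CPM (-0.50 ± 0.26, adjusted p = 0.344), with 10 of 10 treated muscles below the control median. At least 7 of 10 treated muscles lay below the control median in 32.9% of tested genes. The values of Ngfr and Cdh19 within libraries 6 to 15 were -0.67 and -0.26. The more abundant Scn7a (-0.22 ± 0.19) and Ncam1 (-0.22 ± 0.18) stood nearer to 0, but within libraries 6 to 15 Scn7a lay at 0.16 and Ncam1 at -0.48. Of the repair genes, Bdnf and Gdnf, neurotrophic factors induced in injured nerve, were at -0.57 ± 0.38 and -0.31 ± 0.47, and Jun, the factor that drives the repair state, was at 0.01 ± 0.14. In the range of libraries 6 to 15 the 3 genes stood at -0.56, -0.26 and -0.26. Of the perineurial genes, the glucose transporter gene Slc2a1 and Ptch1 were at 0.14 ± 0.22 and 0.07 ± 0.10, and at 0.05 and 0.09 within libraries 6 to 15.

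Marker lists of other cell types were read from the same fit. Of all tested genes, 55.9% had a log2 fold change below 0, and 52.1% within libraries 6 to 15. All 6 adipocyte markers were below 0 on the log2 scale (median -0.71, and -0.62 within libraries 6 to 15), summing to 55.5 to 285 CPM in control and 28.1 to 101 in treated muscle, with Cfd the most abundant. All 6 macrophage markers were below 0 (median -0.66, and -0.75 within libraries 6 to 15), summing to 72.2 to 205 and 42.8 to 164 CPM, with Lyz2 the most abundant. All 6 fibroblast markers were below 0 (median -0.34, and 0.00 within libraries 6 to 15), summing to 176 to 978 and 270 to 600 CPM and led by Dcn. Of the pericyte and smooth muscle markers, led by Rgs5, 5 of 6 were below 0 (median -0.23, and -0.13 within libraries 6 to 15), as were 5 of 6 endothelial markers (median -0.13, and -0.26). Of 4 tested neutrophil markers, 3 were above 0 (median 1.12, and 0.06 within libraries 6 to 15), summing to 1.36 to 96.1 CPM in control and 1.46 to 106 in treated muscle. The 3 tested satellite cell markers had a median of -0.05, and of 0.12 within libraries 6 to 15. The 5 myofibre markers were all above 0 (median 0.16, and -0.07 within libraries 6 to 15). Of 42 tested marker genes of other cell types, 0 passed the 5% false discovery rate in edgeR and 1, the macrophage receptor Csf1r, did in DESeq2, which called 1.31% of all tested genes. At an unadjusted p under 0.05, 9 were lower and 0 higher, where all tested genes gave 9.21% and 6.52%. Their part in the members' values was not tested.

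The genes of the set covaried weakly over all muscles. Over the 28 pairs, the median Pearson r of log2 CPM was 0.20 and 23 were above 0. The median was 0.15 on deviations from the treatment means, and 0.44 within libraries 6 to 15, where all 28 were above 0. By two-sided permutation tests with 100000 resamples and adjustment over the 28 pairs, 1 pair passed a 5% false discovery rate over 20 muscles and 0 did within libraries 6 to 15, with 4 and 3 at an unadjusted p under 0.05.

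That pair was Prx and Ncmap, a protein of the outer Schwann cell surface and one of non-compact myelin. Their r was 0.763 (p = 0.00015, adjusted p = 0.0042) and Spearman's rho was 0.783 (adjusted p = 0.0028). Without the 2 muscles farthest from the median of Prx the r was 0.695. It was 0.584 among controls, 0.831 among treated muscles, 0.723 on deviations from the mean of each treatment in each library range, and 0.813 within libraries 6 to 15 (n = 10, adjusted permutation p = 0.0615). The muscles lowest in both were treated muscles 4, 7 and 10, at 1.41 to 2.18 CPM of Prx with 0 to 0.0586 CPM of Ncmap. These Ncmap levels rest on 0 or 1 counts, and a count of 0 allows up to 3. Controls 4 and 5 were next in Prx, at 2.22 and 2.32 CPM, with 3 and 2 counts of Ncmap. Treated muscles 3 and 9 and controls 2 and 8 were high in both, at 5.29 to 6.03 CPM of Prx and 0.412 to 0.595 CPM of Ncmap. Control 10 held the most Ncmap (0.929 CPM) at a middling level of Prx (4.18 CPM).

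Of all 14471 tested genes, Prx had the highest r with Ncmap. From the side of Prx the closest genes, named after the values were seen, had r of 0.837 for Cdc42bpb, a kinase of the cytoskeleton, 0.830 for Sfswap, a splicing regulator, and 0.827 for Nes, the intermediate filament nestin. The next pairs of members were Mbp and Ncmap, with r of 0.605 (adjusted p = 0.0728), and Mag and Ncmap, with r of 0.572 (adjusted p = 0.0763). Against the mean of the other members, r was 0.768 for Ncmap, 0.507 for Prx and for Sox10, 0.455 for Mag, 0.361 for Cnp, 0.274 for Mbp, 0.260 for S100b and 0.06 for Pmp22. An r at least as high was held by 0.00691% of tested genes for Ncmap, 2.16% for Prx, 2.73% for Sox10 and 6.41% for Mag. The share was 11.3% for Cnp, 23.8% for Mbp, 25.4% for S100b and 46.2% for Pmp22. Mbp, S100b and Pmp22 thus stood little apart from tested genes at large over 20 muscles. Within libraries 6 to 15 the r with the mean of the others was 0.589 for Mbp, 0.627 for S100b and 0.336 for Pmp22. In that range it was 0.902 for Ncmap, 0.858 for Prx, 0.525 for Sox10, 0.410 for Cnp and 0.403 for Mag.

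**Figure D4:**
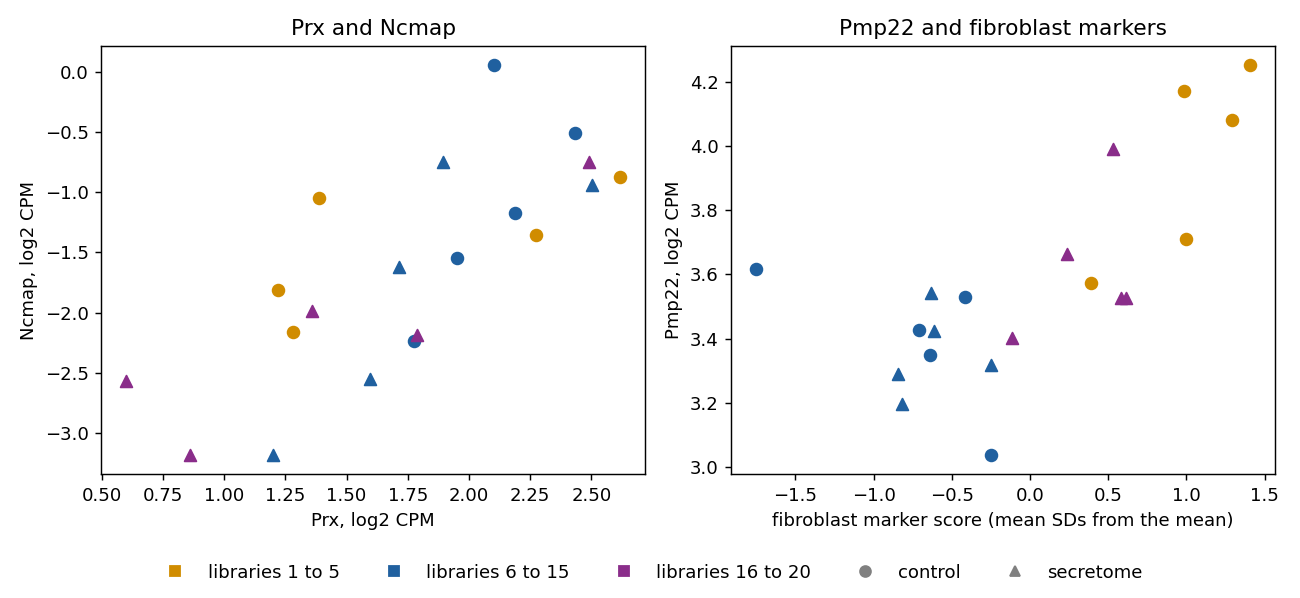
Left, Ncmap against Prx, both in log2 CPM, with 1 point per muscle (circles control, triangles treated, colours for the ranges of library numbers), r = 0.763. Right, Pmp22 in log2 CPM against the mean of 6 fibroblast markers in SDs from the mean, where the 10 muscles of libraries 6 to 15 have the lowest marker values (-1.75 to -0.25) and those of libraries 1 to 5 lie between 0.39 and 1.41, while their Pmp22 levels overlap.

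Other Schwann cell genes near Ncmap and Prx were looked up after the values were seen and are given without a test. By r with Ncmap, Itgb4, the laminin-binding integrin of the Schwann cell surface, ranked 5 of 14471 genes (r = 0.665). The barrier genes Cldn1 of the perineurium and Cldn19 of the Schwann cell loops ranked 63 and 68. Of the 41 tested list genes, 8 (19.5%) were in the highest 5% by r with Ncmap. By r with Prx, 2 of 41 list genes (4.88%) were in the highest 5%. By r with Mbp, Ngfr ranked 43 and the adhesion gene Ncam1 83, and 6 of 41 list genes were in the highest 5%. Genes share libraries and are not independent replicates.

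The 15 tested genes closest to the mean of the 8 members held none of the listed Schwann cell genes. They were led by Zfp652os (r = 0.772), Brsk1 (0.755), Paxx (0.747), Armcx2 (0.742), Myl6b (0.734), Il34 (0.721), Vkorc1 (0.719) and Apba1 (0.714), followed by Plxnb2 (0.713), Fbxw9, B4galt2, Elk1, Ndrg1, Hps1 and Cyp4f16 (0.690). Among them Ndrg1 is known for an inherited demyelinating neuropathy and Myl6b for the myosin light chain of muscle. Within libraries 6 to 15 their r lay between 0.552 for Cyp4f16 and 0.822 for Armcx2. Of the 41 list genes, 6 were in the highest 5%, among them Itgb4, Cadm4, Nfatc4, Drp2 and Cldn1. The closest was Itgb4 (r = 0.571, rank 171). The smooth muscle marker Acta2 was closer (r = 0.579, rank 149), and the 6 pericyte and smooth muscle markers had a median r of 0.341. Their part in the mean of the members was not tested.

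**Figure D5:**
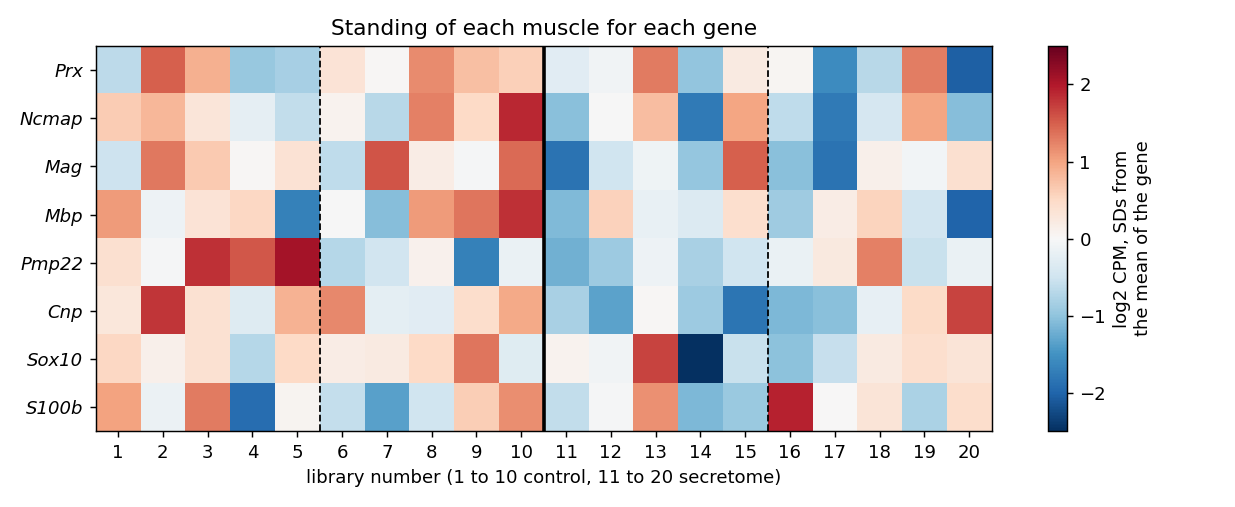
Standing of each muscle for each gene, as log2 CPM in SDs from the mean of that gene, with library numbers 1 to 10 for controls and 11 to 20 for treated muscle. A solid line divides the treatments and dashed lines the ranges of library numbers. Library 14 (treated muscle 4) is above the median for 0 of 8 genes and library 3 (control 3) is above the median for all 8.

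Read by muscle, control 10 stood highest, with a mean over the 8 genes of 0.922 SD above the gene means, followed by control 3 (0.760) and control 2 (0.657). Treated muscle 4 stood lowest at -1.27 SD, followed by treated muscle 1 (-0.853) and treated muscle 7 (-0.792). All 8 genes count equally in this mean, and these low standings rest partly on scarce counts. Treated muscle 4 had 0 counts of Sox10 and Ncmap and 1 of Mag. Treated muscle 1 had 0 counts of Mag and 1 of Ncmap. Treated muscle 7 had 0 counts of Mag and Ncmap but ranked 6 for Pmp22 and 10 for Mbp. Treated muscles 1 and 4 were above the median for 0 of the 8 genes, whereas control 3 was above it for 8 of 8. The treatments did not split on this mean. Treated muscle 3 stood at 0.564 SD, with the highest Sox10 and the highest treated Prx. Treated muscles 9 (0.159) and 8 (0.148) also lay above the gene means, and controls 7 (-0.253), 4 (-0.251) and 6 (-0.020) lay below them.

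The level of Pmp22 followed the library ranges. It held 11.8 to 18.9 CPM in libraries 1 to 5, 8.10 to 12.2 in libraries 6 to 15 and 10.5 to 15.8 in libraries 16 to 20. The 6 fibroblast markers summed to 676 to 978, 176 to 427 and 457 to 600 CPM in the same ranges, none of them being at 0. Members were set against the mean levels of 8 marker lists, the library total and the titin share, which made 80 relations, of which 10 had an unadjusted p under 0.05, 3 passed a 5% false discovery rate and 0 did so within libraries 6 to 15. Pmp22 rose with the fibroblast markers over 20 muscles (r = 0.700, rho = 0.651, permutation test, adjusted p = 0.0280 for r and 0.0984 for rho, and r = 0.775 without the 2 farthest muscles). The relation did not hold within libraries 6 to 15, where r was -0.513 (permutation test, unadjusted p = 0.133, adjusted p = 0.994). In that range control 8 had the lowest fibroblast marker mean, at -1.75 SD with the next at -0.84. It also held the most Pmp22 of the range, at 12.2 CPM. Pmp22 also fell as the titin share rose (r = -0.675, rho = -0.657, permutation test, adjusted p = 0.0293 for r and 0.0984 for rho), with r of 0.425 within libraries 6 to 15. Within libraries 6 to 15, Pmp22 had r of 0.764 with the pericyte and smooth muscle markers (unadjusted permutation p = 0.0098, adjusted p = 0.392) and of 0.694 with the endothelial markers (adjusted permutation p = 0.687), where all 20 muscles gave 0.183 and -0.140. The part of connective tissue and vessels in the level of Pmp22 was not tested.

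Over all 20 muscles, Mag was the 1 member whose relation with the pericyte and smooth muscle markers passed the 5% false discovery rate. Its r with the mean of the 6 pericyte and smooth muscle markers was 0.698 (rho = 0.630, permutation test, adjusted p = 0.0280 for r and 0.0984 for rho). It was 0.552 without the 2 farthest muscles and 0.814 within libraries 6 to 15 (unadjusted p = 0.00583, adjusted p = 0.392). These markers summed to 174 to 358 CPM in control and 195 to 335 in treated muscle, none of them being at 0. Mag had at most 10 counts in a library, where counting error alone gives a coefficient of variation of 51.6%. Ncmap stood at 0.531 with the same markers (rho = 0.458, adjusted permutation p = 0.216), and Prx at 0.363 (rho = 0.307, adjusted permutation p = 0.515).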

How the data were processed

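The authors counted reads of ribosome-depleted, stranded total RNA libraries per gene and deposited the counts without normalization, 1 column per muscle. The submitters' processing notes name STAR 2.7.9a, cutadapt 1.16, featureCounts 1.6.3 and DESeq2 1.34.0 with the GRCm39 (mm39) build. No column was left unmatched to a label, and 0 pairs of columns were identical.

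The members, the gene lists and the tests were chosen with earlier results of these data known. Genes were filtered with filterByExpr (minimum count 10), which kept 14471 of 55416, and normalized by TMM. The robust quasi-likelihood fit of edgeR 4.0.16 in R 4.3.3 held a single treatment term, and p-values were adjusted by Benjamini-Hochberg over all tested genes at a 5% false discovery rate. Each SE was obtained by dividing the log2 fold change by the square root of the F statistic. Spread was tested with limma 3.58.1 on absolute deviations of log2 CPM (prior count 2) from the group median. Correlations used log2 CPM, with 100000 resamples by numpy 2.4.6 and ranks by scipy 1.17.1. Lengths came from GENCODE M21 (GRCm38).

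Named are all members, any gene past the false discovery rate, the most abundant gene of the marker lists discussed, the 15 genes closest to the mean of the members, and for each list discussed the 2 genes with the smallest p and the 2 with the highest CPM. Other genes were named after their values were seen. Alternatives were RLE, no filter, DESeq2 1.42.0, voom, the replicate number as a block, library ranges and each muscle left out. The scripts were tested on simulated data. Some genes of the lists are not reported here.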

Additional observations from a re-analysis of the deposited data

Results flagged for a closer look

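In 4 of the 16 groups of 10 muscles examined, 1 muscle lay apart from the rest of its group, by a gap to the nearest muscle larger than Dixon's 95% critical value of 0.466 of the group's range. Chance gives about 1 in 20 such groups where values are normally distributed, which was not tested for these CPM values. All 4 muscles were the highest of their group. Treated muscle 8 held 15.79 CPM of Pmp22, with the next treated muscle at 12.55. Treated muscle 5 held 0.4867 CPM of Mag, from 10 counts, with the next at 0.2343. Control 9 held 1.332 CPM of Sox10, with the next control at 0.801, and treated muscle 3 held 1.647 CPM of Sox10, with the next treated muscle at 0.7556. Without treated muscle 3 the log2 fold change of Sox10 was -0.57, and without treated muscle 4, which had 0 counts, it was -0.12. Without treated muscle 8 that of Pmp22 was -0.28.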

How the results depend on the processing

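No alternative brought any of the 5 tested members past the 5% false discovery rate, and each kept its direction in the 27 alternatives run for it. Leaving out each muscle in turn, the log2 fold change ranged from -0.27 to -0.15 for Mbp, -0.28 to -0.14 for Pmp22, -0.40 to -0.19 for Prx, -0.57 to -0.12 for Sox10 and -0.33 to -0.21 for Cnp, whose unadjusted p stayed under 0.05 in 10 of 20 fits.

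Counts over all genes were less stable, and the cause was not tested. The 1 gene past the threshold became 190 with DESeq2, 3 with voom, 0 with the replicate block, 0 within libraries 6 to 15, 0 with a term for the 3 library ranges and 0 to 15 with 1 muscle left out, the 15 without control 5. The list genes past it rose from 0 to 1 with DESeq2. The 8 genes of the interaction became 2 without a filter. The 1 gene of the spread test became 0 within libraries 6 to 15, 0 on log2 deviations, a choice made after seeing the data, and 0 to 2 with 1 muscle left out. The 1 correlated pair became 2 at a prior count of 0.5 and 0 within libraries 6 to 15, where only 10 muscles remain.

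Muscles that share a replicate number did not deviate together, with correlations from -0.24 to 0.221, of which 2 of 10 were over 0.1. With the replicate block the members' log2 fold changes were -0.20 for Mbp, -0.19 for Pmp22, -0.32 for Prx, -0.43 for Sox10 and -0.27 for Cnp. Depth limits Mag, Ncmap and S100b most.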
